A study of Mus musculus with 8 samples.

Results

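Lamp5 interneurons were taken from single nuclei RNA sequencing of mouse cortex as the nuclei that carried the GABA synthesis genes Gad1 and Gad2 together with Lamp5. A nucleus was a member when it held 3 or more unique molecular identifiers (UMIs, counted RNA molecules) of Gad1 and Gad2 summed, 2 or more of Lamp5, and at most 1 each of Slc17a7, Sst, Pvalb and Vip, after filters of 200 to 6000 genes, more than 1000 UMIs and under 10% mitochondrially encoded UMIs. There were 536 members among 54343 nuclei that passed the filters, which is 0.986% of all nuclei and 8.59% of the 6241 GABAergic nuclei (the same Gad and Slc17a7 limits). The levels of Lamp5, Gad1, Gad2, Slc17a7, Sst, Pvalb and Vip therefore chose the members and are given as a description.

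The study asked how loss of the type I interferon receptor subunit IFNAR1 changes cortical cells, and compared 4 wild-type (Wt, Ifnar1+/+) with 4 Ifnar1-/- mice, each with 2 females (F1, F2) and 2 males (M1, M2) and 1 library per mouse. All were naive animals of 6 weeks on the C57BL6J strain. The Ifnar1-/- allele is carried by every cell of the mouse throughout life, so a difference in these neurons cannot be told apart from one that arose in other cells or in development. Wt libraries held 254 members and Ifnar1-/- libraries 282.

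Lamp5 interneurons are GABAergic cells of the caudal ganglionic eminence lineage, common in layer 1 and scattered through the deeper layers. They include the neurogliaform cells, which release GABA diffusely into the neuropil and so reach GABA-A and GABA-B receptors outside the synapse, and which often express neuropeptide Y and reelin. A smaller set carries Lhx6, the transcription factor of the medial ganglionic eminence lineage. Type I interferon binds a receptor made of IFNAR1 and IFNAR2 and acts through JAK kinases and STAT proteins on a large set of antiviral genes.

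The libraries held 44063346 to 58423423 UMIs in all nuclei. Members had a median of 6848 UMIs and 3058.5 genes, against a median of 7615 UMIs in all GABAergic nuclei. The sums over members, on which every gene test below rests, ran from 263662 UMIs in 32 nuclei (Wt F2) to 731605 UMIs in 79 nuclei (Wt F1). Scrublet called 22 members (4.10%) doublets, close to the 4.17% of all nuclei, and they were kept in the main tests. Of all kept barcodes, 352 occurred in more than 1 library, and 7 member barcodes occurred in another library.

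The members carried genes of this cell type that the selection did not use. Adarb2, a marker of the caudal lineage, was detected in 92.9% of them, the synaptic vesicle gene Sv2c in 77.1%, the receptor tyrosine kinase gene Kit in 74.1%, Npy in 70.9%, Reln in 63.8% and the hyaluronan link protein gene Hapln1 in 55.4%. Ndnf, a marker of the layer 1 neurogliaform cells, was detected in 42.4%. In 6836 nuclei of an oligodendrocyte reference (10 or more UMIs of the oligodendrocyte markers, no Gad1 or Gad2 UMI and at most 1 of Slc17a7), which should lack these genes, the shares were 13.3% for Adarb2, 1.26% for Sv2c, 4.02% for Kit, 7.04% for Npy, 2.84% for Reln and 0.607% for Ndnf at a median of 2117.5 UMIs. Nuclei of 3000 or more UMIs were also thinned to 3000 UMIs, which left out most oligodendrocytes. The share with Npy was then 65.5% of members and 5.71% of oligodendrocytes, and that with Ndnf 33.6% and 0.906%. These shares stood above the free RNA level of the deeper oligodendrocytes at equal depth.

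The 3 classes used beside the members were chosen by the same limits with 2 or more UMIs of Vip, Sst or Pvalb in place of Lamp5, and held 387, 1405 and 269 nuclei with medians of 5929, 8819 and 10441 UMIs. Kit was found in 62.5% of Vip nuclei but 9.47% of Sst and 3.72% of Pvalb nuclei, whereas Sv2c was found in 7.24%, 12.5% and 7.81%. Npy and Reln were also frequent in Sst nuclei, at 64.5% and 58.7%. Ndnf was rare in all 3, at 2.58%, 4.56% and 1.49%. The Sncg interneuron gene Krt73, the astrocyte gene Gfap and the vascular genes Cldn5 and Pdgfrb had no UMI in any member, and Krt73 had none in the 3 other classes either. For each of these, 0 of 536 members allows a share of nuclei with a UMI of up to 0.560%, counting error only, which does not limit the share of cells that express the gene. Slc17a7, held to at most 1 UMI by the selection, was found in 14.9% of members and 12.6% of oligodendrocytes.

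**Figure D1:**
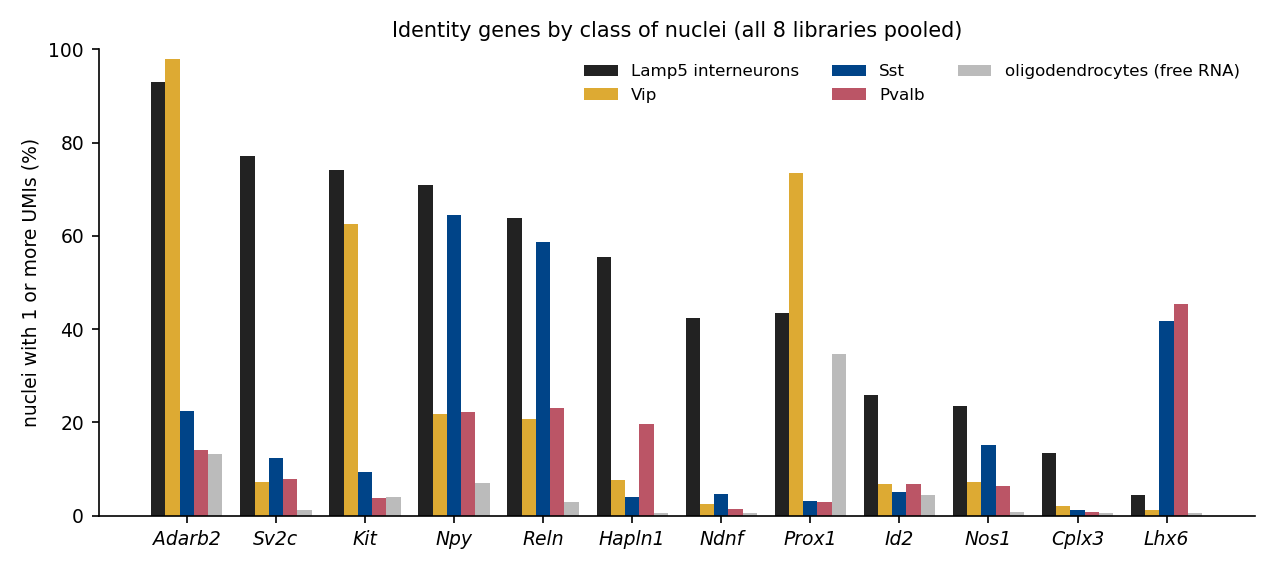
Percent of nuclei with 1 or more UMIs (vertical axis) of 12 identity genes in the Lamp5 interneurons, in Vip, Sst and Pvalb nuclei, and in oligodendrocytes as a free RNA reference, with all 8 libraries pooled. Sv2c, Hapln1 and Ndnf are found in more members than nuclei of the 3 other classes, at 77.1%, 55.4% and 42.4%, while Adarb2 is shared with Vip nuclei and Lhx6 (4.48% of members) belongs mainly to Sst and Pvalb nuclei.

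Most but not all members carried 1 or more of Reln, Ndnf, Npy and Kit. Npy and Reln were also frequent in Sst nuclei and Kit in Vip nuclei, so this count alone does not tell members from those classes. Of the 536, 161 carried all of Reln, Ndnf, Npy and Kit, 137 carried 3 of them, 119 carried 2, 53 carried 1 and 66 carried none. The 66 without any had nearly the same depth as the other 470 (medians of 6427 and 6907.5 UMIs) but fewer of them held the neurexophilin gene Nxph1 (42.4% against 91.1%), Egfr (16.7% against 79.4%) and Hapln1 (13.6% against 61.3%). More of them held Rgs9, a signalling regulator of striatal projection neurons (50.0% against 6.17%), the tachykinin gene Tac1 (40.9% against 6.81%) and the dopamine receptor gene Drd1 (31.8% against 9.15%).

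Members with 2 or more of the 5 striatal projection neuron markers Ppp1r1b, Drd1, Drd2, Adora2a and Rgs9 numbered 38 (7.09%), of which 21 were among the 66. The same count held for 1.81% of Vip, 6.12% of Sst and 1.49% of Pvalb nuclei and for 0.205% of oligodendrocytes. Of the 38, 68.4% held Tac1 (6.63% of the others) and 26.3% held Npy (74.3%). They were spread over all libraries, with 7, 1, 8 and 4 in Wt F1, F2, M1 and M2 and 4, 6, 4 and 4 in Ifnar1-/-. The nuclei without Reln, Ndnf, Npy and Kit were 6.25% to 14.3% of members in the Wt libraries and 6.90% to 10.96% in Ifnar1-/- F1, M1 and M2, but 34.7% (17 of 49) in Ifnar1-/- F2. Shares and mitochondrial values below are also given without Ifnar1-/- F2 where they moved with it, and the tests were repeated on the 470 members with 1 or more of the 4 genes. Without this female library the genotypes are no longer balanced for sex.

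The 4 genes went together in a graded way. All 227 members with Ndnf also held Adarb2, 96.5% held Kit and 94.7% held Reln, whereas 57.6% of members without Ndnf held Kit. Npy was found in 78.4% of members with Ndnf and 65.4% of those without. Nos1, the neuronal nitric oxide synthase gene, was found in 23.5% of members, Id2 in 25.9% and the complexin gene Cplx3, known from layer 6b cells and from Lamp5 interneurons, in 13.4%. These are overlaps within the same nuclei and at the same depth, and carry no test.

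Lhx6 was rare. It was detected in 24 members (4.48%), against 41.6% of Sst, 45.4% of Pvalb and 0.468% of oligodendrocyte nuclei, and 10 members (1.87%) held 2 or more UMIs. All 10 carried Adarb2, and 9 carried Nos1 and 9 Hapln1 (90.0% each, against 22.2% and 54.8% of the other 526). Kit was found in 20% of them against 75.1%, and Ndnf in none. These 10 nuclei were deeper (median of 10987.5 against 6818.5 UMIs), and after thinning none held 2 UMIs of Lhx6. The share with 2 or more Lhx6 UMIs was 2.36% ± 3.03 in Wt and 1.87% ± 2.91 in Ifnar1-/- (SD, n = 4 each, exact two-sided permutation test p = 0.83, where the smallest p possible is 0.0286). Without Ifnar1-/- F2, which held 6.12%, the Ifnar1-/- mean was 0.457% ± 0.791 and the difference moved from -0.49 to -1.91 percentage points (exact permutation p = 0.571). F2 is a female, and the share was 3.89% ± 2.98 in females and 0.342% ± 0.685 in males, so this value is not balanced for sex.

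At the limits of the selection, 254 members held exactly 2 Lamp5 UMIs and 517 nuclei that met every other limit held 1. Kit was found in 65.7% of the former and 44.9% of the latter, and Adarb2 in 88.2% and 78.5%. With 3 Gad UMIs there were 60 members and with 2 there were 77 nuclei outside, and Kit was found in 38.3% and 23.4% of them. The Slc17a7 limit had 80 members with 1 UMI and 25 nuclei outside with 2, the Sst limit 94 and 12, the Vip limit 27 and 3, and the Pvalb limit 14 and 1.

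Genes that set the members apart from the 2061 other interneurons were ordered by what their products do. Of these other interneurons 1405 were Sst nuclei, which weigh most in their sum. Levels are CPM, a gene's UMIs scaled to the summed UMIs of a library's nuclei of that class, times a library factor (TMM) computed within that class. For the members that sum covers the tested genes only (690760 of 731605 UMIs in Wt F1), and for the other classes all genes. The members' levels are thereby slightly raised beside the others. Levels summed over a list below are scaled to all UMIs without a factor. These differences carry no test because the members were chosen from the same counts. Lists are counted whole, without the genes that chose the members, and beside the 23398 genes with a UMI in the members or the other interneurons, of which 6.15% were above the other interneurons in all 8 libraries, 4.24% were below and 1.84% were above each of the Vip, Sst and Pvalb sums. Many genes of the lists are too scarce to stand above or below in every library. Of 22 identity genes, 13 were above the summed other interneurons in all 8 libraries, 3 were below (Lhx6, Npas1 and Eya4), and 10 were above each of the 3 classes. Reln, the extracellular matrix glycoprotein, ran from 1013 to 1909 CPM against 318 to 435 in the other interneurons, and Ndnf from 125 to 421 CPM against 1.30 to 12.5. Kit ran from 415 to 974 CPM against 47.5 to 148, with the Vip nuclei at 220.1 to 565 CPM. Adarb2 was above the other interneurons as a whole (4141 to 7819 CPM against 1628 to 3206) but below the Vip nuclei (11042 to 16219.9 CPM) in all 8 libraries. Lhx6 (2.07 to 33.5 CPM against 40.7 to 81.3) and Npas1 (0 to 10.3 CPM against 36.5 to 65.2), a transcription factor of interneuron development, were below in all 8.

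By ratio of mean levels, the genes furthest above the other interneurons were the unnamed transcript Gm3510 (42.4 times), Ndnf (36.2), the cyclic nucleotide phosphodiesterase gene Pde11a (29.97), Hapln1 (23.0), E130114P18Rik (20.8), Atp6ap1l (16.9), Sv2c (16.1), the calcium channel auxiliary subunit gene Cacna2d1 (15.9), A230001M10Rik (15.7), 6530411M01Rik (14.7), Crispld1 (14.4), the collagen receptor gene Ddr2 (12.5), Gm16070 (11.5), the proteoglycan gene Vcan (11.2) and Disp3 (11.05). Cacna2d1 ran from 1335 to 1869 CPM against 73.1 to 134, and Pde11a from 479 to 738 CPM against 14.5 to 26.5. The members' lowest library was above the highest library of the other interneurons for each of Ndnf, Hapln1, Sv2c, Cacna2d1 and Pde11a.

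The GABA system of the members differed from that of the other interneurons in several subunits. Among GABA-A receptor subunits 7 of 13 were above in all libraries and 1 was below. Gabra5, a subunit of receptors outside the synapse, ran from 74.3 to 137 CPM against 22.3 to 38.1, and Gabrb2 from 592 to 1034 CPM against 264 to 385. Among GABA-B receptors and their auxiliary proteins 3 of 9 were above and 1 was below. The auxiliary subunit gene Kctd16 ran from 2444 to 4082 CPM against 640.4 to 980.4 and the receptor gene Gabbr2 from 705 to 1262 CPM against 315 to 435, whereas Kctd8, another auxiliary subunit, ran from 10.4 to 75.8 CPM against 253 to 388.

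Glutamate receptor genes went both ways. Of 18 ionotropic receptor genes 4 were above and 5 below in all libraries, and of 7 metabotropic receptor genes 1 was above and 3 were below. The NMDA receptor gene Grin2a ran from 2298 to 3525 CPM against 884 to 1088. Grin3a, another NMDA receptor subunit gene, ran from 129 to 170.2 CPM against 453 to 574. It was below the Sst sum in all 8 libraries, but above the Pvalb sum in all 8 and the Vip sum in 5. The AMPA receptor gene Gria1 ran from 827 to 1598 CPM against 1810.5 to 2664 and the metabotropic receptor gene Grm7 from 456 to 915 CPM against 1134 to 1696.

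Receptors for modulators and peptides went both ways. Of 28 amine and acetylcholine receptor genes 7 were above and 3 below in all libraries, and of 36 neuropeptide and peptide receptor genes 6 were above and 9 below. Those below the summed other interneurons included the peptide genes Crh and Cort and the receptor genes Oxtr, Tacr1, Oprd1 and Rxfp3. Not every class was above the members. Crh in members was above the Pvalb sum in 4 of 8 libraries. Cort was above the Vip sum in 5 and the Pvalb sum in 4, and Oprd1 above the Vip sum in 4. Adra1a, an adrenergic receptor, ran from 471 to 769 CPM against 146 to 199.97, and Chrna7, a nicotinic receptor subunit, from 141 to 271 CPM against 37.6 to 55.1. Hcrtr2, an orexin receptor, ran from 139 to 207 CPM against 14.9 to 26.98, and Oprm1, the mu opioid receptor, from 121 to 245 CPM against 42.9 to 85.7. Each of these 4 was above every one of the Vip, Sst and Pvalb sums in all 8 libraries. The serotonin receptor gene Htr2c ran from 12.7 to 86.02 CPM against 165 to 359.7. It was below the Vip and Sst sums in all 8 libraries, but above the Pvalb sum in 3 of 8.

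The prepronociceptin gene Pnoc ran from 125 to 298 CPM against 30.2 to 81.4. Of 26 voltage-gated potassium channel genes 9 were above and 5 below, of 30 sodium and calcium channel genes 9 and 4, and of 30 synaptic adhesion genes 6 and 10. Fgf13, which binds sodium channels, ran from 1734 to 2818 CPM against 214 to 312. Of 8 neuregulin pathway genes 3 were above and 1 was below. Erbb4, the neuregulin receptor, ran from 7274 to 10038 CPM against 3869.5 to 5213, and was above the Sst sum in all libraries but above the Pvalb sum in only 2 of 8.

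The share of Lamp5 interneurons among GABAergic nuclei did not pass a test between genotypes. The 4 Wt libraries (F1, F2, M1, M2) had 9.53%, 5.35%, 7.59% and 8.80%, and the 4 Ifnar1-/- libraries 9.76%, 6.33%, 10.3% and 10.4%. F2 was the lowest library in each genotype, and the groups overlapped. The means were 7.82% ± 1.83 and 9.20% ± 1.93 (SD, n = 4 each), a difference of 1.38 percentage points (exact two-sided permutation test p = 0.314). The difference was 0.557 without Wt F2 and 2.33 without Ifnar1-/- F2 (exact permutation p = 0.0571, the smallest possible with 1 library left out). Without Ifnar1-/- F2, a female, every remaining Ifnar1-/- library lay above every Wt library, and the genotypes were not balanced for sex. Among members with 1 or more of Reln, Ndnf, Npy and Kit it was 0.987 (6.98% against 7.97%, exact permutation p = 0.486).

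**Figure D2:**
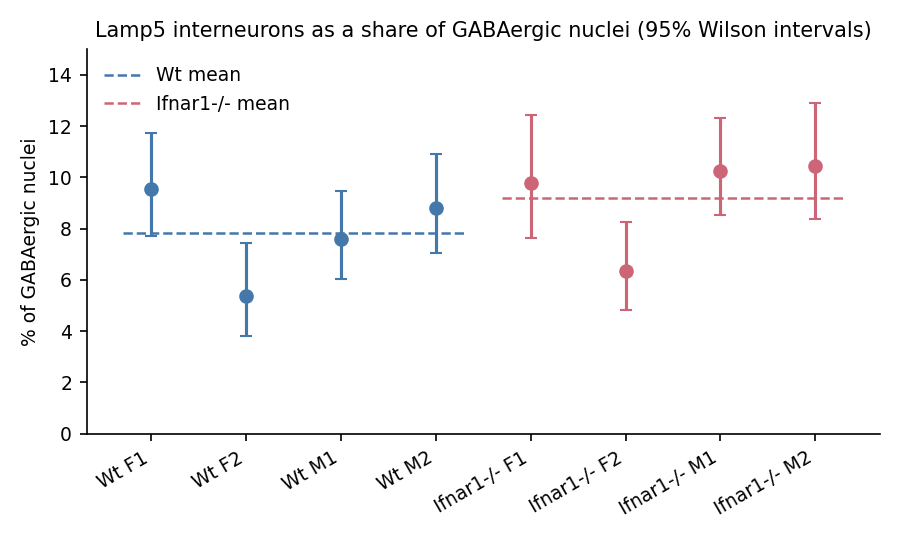
Lamp5 interneurons as a percent of GABAergic nuclei (vertical axis) in each of the 8 libraries, with 95% Wilson intervals that cover counting error only and dashed lines at the genotype means of 7.82% (Wt) and 9.20% (Ifnar1-/-). The F2 library is the lowest in both genotypes, at 5.35% and 6.33%.

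Shares of members with single identity genes did not pass a test between genotypes either. Npy was detected in 73.5% ± 7.95 of Wt and 68.3% ± 11.6 of Ifnar1-/- members (SD, n = 4 each), and in 74.1% of Ifnar1-/- members without Ifnar1-/- F2, where it was 51.0%. Kit had 73.9% ± 5.86 and 73.6% ± 15.6 (81.2% without Ifnar1-/- F2), Reln 67.1% ± 5.27 and 59.8% ± 10.1 (64.8% without it), and Ndnf 41.5% ± 5.92 and 39.9% ± 11.5 (45.1% without it). Over 15 genes examined, the lowest exact permutation p was 0.0571 (Egln3, 0.857 after Benjamini-Hochberg adjustment).

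Ifnar1, the targeted gene (chr16:91485238-91507441, mm10), was scarce in these cells. Wt libraries F1, F2, M1 and M2 held 8.75, 16.9, 25.5 and 18.6 CPM and Ifnar1-/- libraries 20.9, 32.97, 16.4 and 12.8 CPM. The groups overlapped, with means of 17.4 ± 6.90 and 20.8 ± 8.79 (SD, n = 4 each) from 30 and 39 UMIs, and the gene was under the filter on low counts and was not tested. A count per gene does not show which part of the transcript was read, so the level neither bears out nor contradicts the genotype labels.

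Only Gon4l and its antisense gene Gm43713 were called between genotypes, 2 of 7458 genes (0.0268%), both higher in Ifnar1-/- (edgeR's quasi-likelihood test, Benjamini-Hochberg adjusted p under 0.05). At an unadjusted p under 0.05 there were 160 genes (2.15%) by edgeR and 115 of 20080 by DESeq2, which called 4 after adjustment. The main edgeR model holds no term for sex, so spread between the sexes enters its SEs and p-values. With sex as a covariate edgeR called the same 2 genes, with 290 at an unadjusted p under 0.05. A sum over nuclei cannot tell fewer cells with a transcript from less of it in each cell. Gon4l encodes a nuclear protein that acts in transcription (ENSMUSG00000054199, chr3:88835231-88910103, plus strand, mm10). It had 99.2, 122, 97.5 and 101 CPM in Wt and 278, 244, 287 and 238 CPM in Ifnar1-/- libraries F1, F2, M1 and M2. Every Ifnar1-/- library was above every Wt library, as it was for 77 genes (1.03%) of those tested, with 80 (1.07%) the other way. The means were 105 ± 11.7 and 262 ± 24.5 CPM (SD, n = 4 each; log2 fold change 1.33, SE 0.15, edgeR adjusted p = 0.0028).

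Gm43713 (ENSMUSG00000106218, chr3:88845025-88900001, minus strand, mm10) lies wholly within Gon4l, over 54977 bases. It had 109, 88.7, 67.3 and 72.4 CPM in Wt and 348, 319, 269 and 275 CPM in Ifnar1-/- libraries, again without overlap. The means were 84.4 ± 18.96 and 303 ± 37.4 CPM (SD, n = 4 each; log2 fold change 1.82, SE 0.19, edgeR adjusted p = 0.00142). The use of strand in the authors' counting is not given in the sources used here, so UMIs of the pair may not be told apart. The differences held within each sex, at 1.27 in females and 1.40 in males for Gon4l and 1.70 and 1.96 for Gm43713 on the log2 scale. They were close to those in the other interneurons of the same mice, 1.17 and 1.79, and the difference between the classes was 0.17 for Gon4l (unadjusted p = 0.306) and 0.00 for Gm43713 (unadjusted p = 0.992, edgeR interaction term). Both stayed past the threshold with any 1 library left out.

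**Figure D3:**
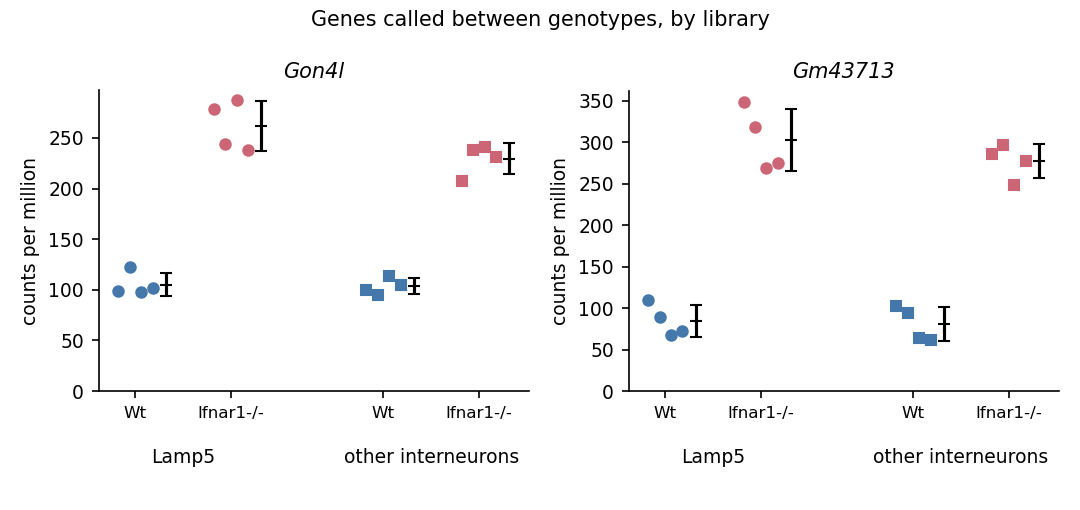
CPM (vertical axis) of Gon4l (left) and Gm43713 (right) in each Wt and Ifnar1-/- library, for the summed Lamp5 interneurons (circles) and the summed other interneurons (squares), with mean and SD beside each group. The Ifnar1-/- libraries lie above all Wt libraries in both classes, with Lamp5 interneuron means of 105 ± 11.7 and 262 ± 24.5 CPM for Gon4l.

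Gon4l and Gm43713 belong to a list of 20 genes found to shift between the genotypes in wider classes of these nuclei, which was chosen on the same samples and so is not independent. Of the same list, Gm15446 had 39.4, 29.6, 44.1 and 26.9 CPM in Wt and 3.48, 0, 2.98 and 16.5 CPM in Ifnar1-/- libraries. The groups did not overlap, on 66 and 12 UMIs in all. The log2 fold change of -2.49 (SE 0.57) did not pass the adjustment (edgeR adjusted p = 0.683, and 0.0928 with sex as a covariate). Without the filter on low counts it passed (edgeR adjusted p = 0.000523). Gm15965 had means of 39.7 ± 7.08 and 23.4 ± 5.82 CPM (SD, n = 4 each, log2 fold change -0.71, SE 0.29) and was not called by edgeR. The kainate receptor gene Grik1 differed by -0.06 (SE 0.14) and the estrogen-related receptor gene Esrrg by 0.39 (SE 0.21) on the log2 scale, neither called. Selenbp2 had 1 UMI in Wt and 14 in Ifnar1-/- members, Fcrls 2 and 15, Gm12576 9 and 1, Gm16000 15 and 9, Lgals3bp 4 and 6, and Tpm3-rs7 24 and 17, and none was tested at these counts.

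No identity, transmission or excitability gene was called between genotypes, at a background of 0.0268% of genes called. Among the 15 tested identity genes, Ifnar1-/- libraries were above Wt for 6 and below for 9. The median over these genes was -0.06 on the log2 scale, beside 0.00 over all 7458 genes. Sv2c had 341, 426, 283 and 269 CPM in Wt and 428, 519, 324 and 514 in Ifnar1-/- libraries, which overlapped (log2 fold change 0.45, SE 0.19, unadjusted p = 0.0382). With sex as a covariate its unadjusted edgeR p was 0.00821, and it was not called. Reln differed by -0.06 (SE 0.18), Kit by 0.11 (SE 0.24), Npy by 0.14 (SE 0.38) and Adarb2 by -0.16 (SE 0.19) on the log2 scale.

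For GABA transmission, 7 of 10 synthesis, vesicle and transport genes were higher and 3 lower (median 0.05), with the vesicular GABA transporter gene Slc32a1 at 0.09 (SE 0.30). Of 11 GABA-A receptor genes 9 were higher and 2 lower (median 0.11). Of 7 GABA-B receptor and auxiliary genes 2 were higher and 5 lower (median -0.07). Kctd8 had 75.8, 21.1, 71.95 and 26.9 CPM in Wt and 10.4, 41.8, 29.8 and 10.98 in Ifnar1-/- libraries, which overlapped (log2 fold change -1.10, SE 0.48, unadjusted p = 0.0366).

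Glutamate receptor genes had medians near 0 between genotypes, at -0.02 for 15 ionotropic receptors (6 higher, 9 lower), 0.02 for 15 AMPA receptor auxiliary proteins (8 and 7) and -0.03 for 6 metabotropic receptors (2 and 4). Grin2a differed by 0.03 (SE 0.16), Grik2 by -0.06 (SE 0.13), Gria2 by 0.13 (SE 0.20) and Grm5 by -0.08 (SE 0.14). Of 13 amine and acetylcholine receptor genes 8 were higher and 5 lower (median 0.06). Htr2c had 49.6, 12.7, 46.4 and 37.2 CPM in Wt and 73.1, 59.3, 52.1 and 86.02 in Ifnar1-/- libraries, without overlap (log2 fold change 0.78, SE 0.31, unadjusted p = 0.024), and did not pass the adjustment. Of 12 neuropeptide and receptor genes 9 were higher and 3 lower (median 0.13), with Pnoc at 0.11 (SE 0.29) and Hcrtr2 at 0.15 (SE 0.17).

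Channel and adhesion gene lists had medians from -0.14 to 0.06. They were 0.00 for 24 potassium channel genes (12 higher, 12 lower), 0.06 for 25 sodium and calcium channel genes (13 and 12), -0.03 for 26 adhesion genes (10 and 16), -0.02 for 5 neuregulin genes (2 and 3) and -0.14 for 5 gap junction, nitric oxide and neurogliaform signalling genes (1 and 4). Kcnip4 differed by 0.16 (SE 0.15), Erbb4 by 0.06 (SE 0.14) and Nrxn3 by -0.06 (SE 0.18), none of them called.

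The paths examined in the study for their link to Parkinson disease and energy metabolism gave no call between genotypes in these cells. In its nuclei data the study drew that link from enrichment of gene sets in neuron classes and subtypes. It also reported such enrichment in microglia for Parkinson disease and in astrocytes for energy metabolism, and set all nuclei together beside its protein data. Here single genes were tested at an adjusted p, so these are unlike measures. Of 11 mitochondrially encoded genes 9 were higher and 2 lower in Ifnar1-/- (median 0.46), with medians of 0.02 within females and 0.58 within males. The share of mitochondrially encoded UMIs in members was 0.518% ± 0.198 in Wt and 0.674% ± 0.403 in Ifnar1-/- (SD, n = 4 each, exact permutation p = 0.543). Ifnar1-/- F2 held 0.199%, and without it the Ifnar1-/- mean was 0.832% ± 0.305, which moved the difference from 0.156 to 0.314 percentage points (exact permutation p = 0.229), and the median of the 11 genes was 0.69 with all 11 higher. F2 is a female, so these values without it are not balanced for sex. The share was 0.361% ± 0.138 in females and 0.832% ± 0.225 in males. mt-Co3 had 773, 891, 1571 and 1631 CPM in Wt and 1437, 462, 2054 and 2731 in Ifnar1-/- libraries, so that Ifnar1-/- F2 was the lowest of all and Ifnar1-/- M2 the highest (log2 fold change 0.46, SE 0.40). Of 51 nuclear oxidative phosphorylation genes 27 were higher and 24 lower (median 0.02), and of 24 pyruvate and TCA cycle genes 10 and 14 (median -0.05). Mpc1, a mitochondrial pyruvate carrier subunit, had 159, 139, 186 and 149 CPM in Wt and 97.4, 90.1, 144 and 135 in Ifnar1-/- libraries (log2 fold change -0.42, SE 0.19, unadjusted p = 0.0419), and the groups overlapped. Of 13 familial Parkinson disease genes 7 were higher and 6 lower (median 0.00), among them the parkin gene Park2 at 0.00 (SE 0.15) and Synj1 at -0.16 (SE 0.19).

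**Figure D4:**
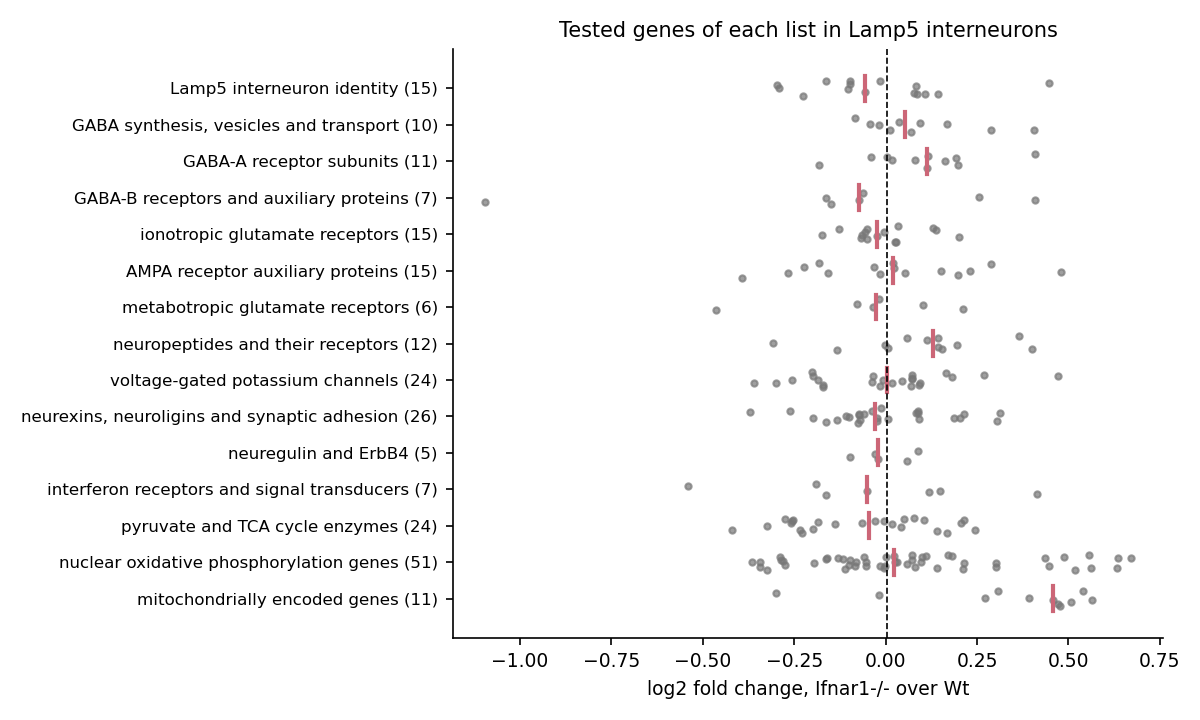
Log2 fold change of Ifnar1-/- over Wt (horizontal axis) for every tested gene of 15 lists (points) in the summed Lamp5 interneurons, with the list median as a coloured bar, the median of all genes as a dashed line and the number of tested genes in brackets. The 15 lists drawn leave out the markers of other cells and several further lists. Among those left out are the gap junction, nitric oxide and neurogliaform signalling genes, with a median of -0.14. Of the 15 drawn, 14 have medians from -0.07 to 0.13, and the mitochondrially encoded genes have 0.46.

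Interferon genes were near the limit of detection in Lamp5 interneurons of both genotypes. Of 56 interferon response genes in the files 19 had no UMI in any member, 22 had 1 to 9 and 15 had 10 or more, and only the RNA editing enzyme gene Adar was abundant enough for the test (log2 fold change 0.13, SE 0.19). Their summed level was 283, 281, 286 and 294 CPM in Wt F1, F2, M1 and M2 and 273, 290.3, 296 and 256 CPM in Ifnar1-/-. The groups overlapped, with means of 286 ± 5.60 and 279 ± 18.3 CPM (SD, n = 4 each) from 554 and 582 UMIs. Adar alone gave 261 and 288 of these UMIs, and the other 55 genes summed to 160 ± 30.8 and 139 ± 22.1 CPM, which also overlapped. Ifi27 had 45 UMIs in Wt and 31 in Ifnar1-/- members and the transcription factor gene Irf9 had 14 and 17.

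Of 21 receptor and signal transducer genes 7 were tested, 3 higher and 4 lower in Ifnar1-/- (median -0.05), and their summed level over all 21 was 381 ± 46.5 and 352 ± 32.4 CPM. The transducer gene Stat3 had 37.9, 59.1, 48.7 and 49.6 CPM in Wt and 31.3, 26.4, 28.3 and 43.9 in Ifnar1-/- libraries, which overlapped (log2 fold change -0.54, SE 0.26, unadjusted p = 0.0599). Jak1 differed by -0.19 (SE 0.22) and Stat2 by -0.16 (SE 0.27).

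The genotype difference in Lamp5 interneurons was also set against that in the other interneurons of the same mice. By edgeR's interaction term 0 of 9860 genes (0%) were called, with 438 at an unadjusted p under 0.05, and DESeq2 called 0 of 23405 with 178. Leaving out Ifnar1-/- F2 gave 7 genes, among them the adhesion gene Tenm3 and the phosphodiesterase gene Pde1a. Leaving out Ifnar1-/- M1 gave 2 (Man1a and Fstl5) and Wt F2 1 (4930555F03Rik), all named after their values were seen. The genotype difference did not pass a test between the sexes either, with 0 of 7458 genes (0%) by edgeR (276 unadjusted) and 0 of 20080 by DESeq2 (93 unadjusted). That count was 4 without Wt M2 (Penk, Brinp3, Gpc5 and Cntnap5b), 3 without Ifnar1-/- F1 (Scn9a, Inpp4b and Cntnap4) and 2 without Ifnar1-/- F2 (Fam19a1 and Brinp3). These fits leave 1 mouse in a group of sex and genotype, which is then assumed to vary like the others.

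Markers of other cells in the sums gave no call between genotypes. The summed striatal projection neuron markers ranged from 997 to 1471 CPM in Wt and from 987 to 1460 CPM in Ifnar1-/- libraries, most of it Pde10a, which the interneurons also express. The 5 oligodendrocyte markers ranged from 49.3 to 278 and from 56.8 to 304 CPM, the 6 microglia markers from 108 to 175 and from 129 to 254, the 6 astrocyte markers from 129.9 to 156 and from 102 to 220.0, and the 7 glutamatergic markers from 28.7 to 107 and from 60.9 to 167. Their ranges overlapped between genotypes for every list. The few tested genes of these lists had median log2 fold changes of 0.42 for 2 astrocyte genes, 0.39 for 3 glutamatergic genes, 0.31 for 2 oligodendrocyte genes, 0.20 for 4 microglia genes and 0.12 for 3 striatal genes, with none called.

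Between the sexes far more genes differed than between genotypes. With genotype in the model, 557 of 7458 genes (7.47%) were called, 364 higher (4.88%) and 193 lower (2.59%) in males (edgeR, Benjamini-Hochberg), and the sexes did not overlap for 12.8% of all genes tested. The count was 344 without Wt F2, 252 without Wt M2 and 225 without Ifnar1-/- M1. It was 469 in members with 1 or more of Reln, Ndnf, Npy and Kit. The first principal component of the 500 most variable genes separated the sexes and held 60.8% of the variance. Sex chromosome genes matched the labelled sexes, with Xist at 1056, 1629.6, 1113 and 1145 CPM in females (Wt F1, F2, Ifnar1-/- F1, F2) and 0, 0, 1.49 and 1.83 in males, and Kdm5d at 0 in every female library and 71.95, 68.2, 63.99 and 73.2 CPM in males.

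The genes higher in males had shorter spans than those higher in females, which is given as a description. The median gene span was 9.96 kb for the former, 75.5 kb for the latter and 43.9 kb for all genes tested, and 98.6%, 57.5% and 93.4% were protein coding. The 5 genes with the highest fold change in males were Eif2s3y, Kdm5d, Ddx3y and Uty on the Y chromosome and Ssbp4, a single-stranded DNA binding protein gene, at 16.04, 4.22, 10.4 and 2.20 CPM in females and 144, 192, 176 and 80.5 CPM in males (log2 fold change 3.98, SE 0.37, adjusted p = 1.1e-06, edgeR). Lower in males beside Xist and Tsix were AY036118 (log2 fold change -2.14, SE 0.30, adjusted p = 0.000189, edgeR), 4930509J09Rik (log2 fold change -2.10) and Gm47661 (-2.09).

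Genes of the respiratory chain were often among those called higher in males, which were 4.88% of all genes tested. Of 11 mitochondrially encoded genes 9 were called higher in males and none lower (median log2 fold change 1.10), and of 51 nuclear oxidative phosphorylation genes 15 were higher and none lower (median 0.64). Of 24 pyruvate and TCA cycle genes 1 was called higher and none lower (median 0.23), a share near that of all genes. mt-Co3 had 773, 891, 1437 and 462 CPM in females and 1571, 1631, 2054 and 2731 CPM in males, without overlap (log2 fold change 1.16, SE 0.22, adjusted p = 0.00368, edgeR). Cox8a, a subunit of complex IV, had 58.3, 4.22, 83.5 and 37.4 CPM in females and 123, 196, 176 and 262 in males (log2 fold change 1.94, SE 0.31, adjusted p = 0.000599, edgeR). The share of mitochondrially encoded UMIs in members was 0.361% ± 0.138 in females and 0.832% ± 0.225 in males (SD, n = 4 each, exact permutation p = 0.0286, the smallest possible, and 0.171 after adjustment over 6 library measures). In the other interneurons it ranged from 0.231% to 0.520% in female and 0.503% to 1.04% in male libraries.

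Transmitter, peptide and channel genes were called in small numbers, beside 4.88% of all genes called higher and 2.59% called lower in males. The lists with a call had shares above these, each on few called genes, which was not tested. Of 12 tested neuropeptide and receptor genes 3 were called higher in males, of 10 GABA synthesis and transport genes 1 was higher, of 11 GABA-A receptor genes 1 was lower, of 15 ionotropic glutamate receptor genes 2 were lower, of 24 potassium channel genes 1 was lower and of 13 amine and acetylcholine receptor genes none was called. Of 25 sodium and calcium channel genes 2 were higher and 1 was lower, and of 15 AMPA receptor auxiliary genes 2 were higher. Of 26 adhesion genes 1 was lower, and of 5 gap junction, nitric oxide and neurogliaform signalling genes 1 was lower. Npy had 1859, 1393, 1600.3 and 1884 CPM in females and 1589.9, 4565, 4613 and 2297 in males, which overlapped at Wt M1 (log2 fold change 0.95, SE 0.24, adjusted p = 0.021, edgeR). Pnoc differed by 0.75 (adjusted p = 0.0273), and Slc32a1 by 0.71 (adjusted p = 0.046, both edgeR). Lower in males were the AMPA receptor gene Gria2 (log2 fold change -0.52, SE 0.13, adjusted p = 0.0213, edgeR), Gabrb2 (-0.45, adjusted p = 0.032) and the potassium channel gene Kcnd2 (-0.49, adjusted p = 0.0315).

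Cck, a peptide of other interneurons and of glutamatergic cells, had 96.2, 42.2, 83.5 and 21.98 CPM in females and 186, 362, 366 and 205 CPM in males (log2 fold change 2.16, SE 0.31, adjusted p = 0.00024, edgeR). The oligodendrocyte reference, which should lack Cck, held it in 4.67% to 12.4% of nuclei in female and 33.0% to 55.6% in male libraries. Members thinned to 3000 UMIs held it in 13.3% ± 6.67 in females and 40.7% ± 10.2 in males (SD, n = 4 each), beside 2.92% to 13.3% and 34.9% to 46.2% of oligodendrocytes at the same depth. At that depth members were above the oligodendrocytes of their own library in 6 of 8 libraries and below them in Wt M1 and Ifnar1-/- M2. Npy was found in 4.12% of oligodendrocytes in female and 9.37% in male libraries, against 68.4% and 73.5% of members. The reference shares thus moved with sex beside these genes, and their part in the sex differences was not tested.

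The share of members with Ndnf was 34.01% ± 6.67 in females and 47.4% ± 2.17 in males (SD, n = 4 each, exact permutation p = 0.0286), and 25.2% ± 5.68 and 38.4% ± 2.77 after thinning (also at exact permutation p = 0.0286). Lhx6 was found in 7.24% of female and 2.23% of male members and Adarb2 in 96.8% and 90.1%, both also at p = 0.0286 in the exact permutation test. After thinning these were 3.48% and 0.700% for Lhx6 (exact permutation p = 0.143) and 94.1% and 88.8% for Adarb2 (exact permutation p = 0.0857). None of the 3 passed adjustment over the 15 genes examined (0.143 each). Without Ifnar1-/- F2 the female shares were 37.2%, 5.57% and 97.1% for Ndnf, Lhx6 and Adarb2, each at exact permutation p = 0.0571, the smallest that 3 against 4 libraries allow. The striatal markers moved with sex in part, with Rgs9 at 84.6, 21.1, 48.7 and 90.1 CPM in females and 39.5, 14.5, 23.8 and 36.6 CPM in males (log2 fold change -1.25, SE 0.35, adjusted p = 0.0315, edgeR), and their part in these shares was not tested.

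No sex difference was shown to be particular to Lamp5 interneurons. Of the 557 genes, 457 were also among the 2014 of 12557 (16%) called in the other interneurons, whose nuclei come from the same libraries, and by the class-by-sex interaction 0 of 9860 genes (0%) were called by edgeR, with 492 at an unadjusted p under 0.05. Each sex had 2 libraries per genotype and no batch is named in the labels, so sex and any handling that went with it cannot be told apart.

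**Figure D5:**
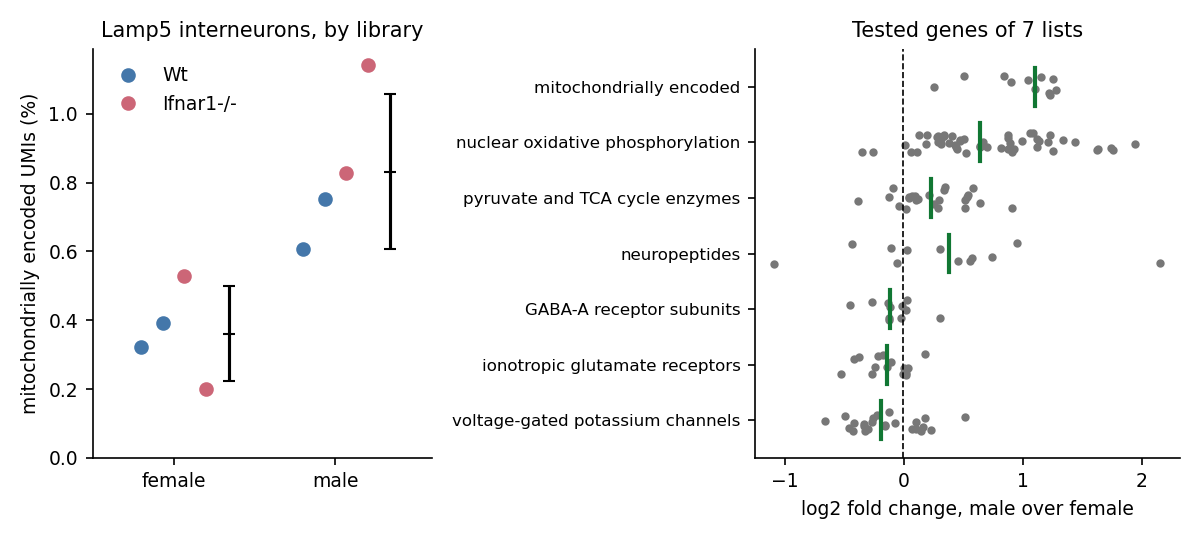
Left, the percent of mitochondrially encoded UMIs (vertical axis) in the Lamp5 interneurons of each library by sex and genotype, with mean and SD (0.361% ± 0.138 in females, 0.832% ± 0.225 in males). Right, the log2 fold change of males over females (horizontal axis) for the tested genes of 7 lists, with list medians as bars and the median of all genes as a dashed line, where the mitochondrially encoded genes (1.10) and nuclear oxidative phosphorylation genes (0.64) lie to the right.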

How the data were processed

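Nuclei of snap-frozen cortex were profiled with 10x 3' v3 chemistry, 1 library per mouse, 8 libraries. The authors deposited raw UMI counts per gene and barcode, made with Cell Ranger 3.1.0 on mm10 with unspliced reads counted, and their notes name Seurat 3.1.5. From these counts, members were found by the limits given above and summed per library. Genotypes were compared with edgeR 4.0.16 (limma 3.58.1, R 4.3.3; TMM factors, filterByExpr, quasi-likelihood test, Benjamini-Hochberg over all 7458 genes tested, threshold 0.05), DESeq2 1.42.0 being an alternative, and shares with exact two-sided permutation tests (scipy 1.17.1). Doublets were marked with Scrublet (scanpy 1.11.5). Standard errors are the log2 fold change divided by the root of F. Shares were also taken after thinning to 3000 UMIs, with 533 members deep enough, the other 3 being from Ifnar1-/-. Most nuclei of the oligodendrocyte reference were below that depth and were left out there. Coordinates are from the mm10 gene annotation. The script was tested on simulated data.

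Members and gene lists were chosen with earlier results of these data known. Named genes were those called (up to 5 a direction in the sex fit), the 4 most abundant tested genes of each list with up to 4 at an unadjusted p under 0.05, the markers, Ifnar1, the genes shifted in wider classes and the 15 furthest above other interneurons. Gabra5, Gria1 and Oprm1, of the same lists, were chosen after their values were seen. A few genes that the rule names are not reported here. Same-numbered libraries of the 2 genotypes deviated together (r = 0.221, 0.292, 0.324 and 0.222), so the replicate block was used as an alternative. After removal of sex means the correlations were -0.0384 and -0.124. Nothing states how mice were paired, and p-values measure the spread between mice. Intervals and limits of 0 counts cover counting error only.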

Additional observations from a re-analysis of the deposited data

Results flagged for a closer look

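In 4 of 28 groups of 4 libraries tested, 1 library lay apart from the other 3 by more than Dixon's test at the 95% level allows, where chance gives about 1 in 20. Ifnar1-/- F2 had Lamp5 interneurons as 6.33% of GABAergic nuclei, against 9.76% to 10.4% in the other Ifnar1-/- libraries. The same library had Npy in 51.0% of its members, against 72.4% to 75.3% in the others, and it was also the library with 34.7% of members lacking Reln, Ndnf, Npy and Kit. 

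Gon4l stood at 122 CPM in Wt F2, above 97.5 to 101 CPM in the other Wt libraries and below every Ifnar1-/- library. Gm15965 stood at 29.2 CPM in Wt F1, below 42.2 to 44.1 CPM in the other Wt libraries. The causes were not tested.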

How the results depend on the processing

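Gon4l and Gm43713 were called in all 18 fits of the genotype comparison, with log2 fold changes of 1.26 to 1.40 and 1.73 to 2.01. The count of 2 genes stayed at 2 by edgeR with sex as a covariate. It was 4 by DESeq2, 5 by DESeq2 with sex as a covariate, 11 without a filter on low counts, and 2 to 3 with 1 library left out. The genes added by DESeq2, named after their values were seen, were Gm26848 and Gm28928, and Fstl5 with the sex covariate. Gm28928 was also the gene added without Ifnar1-/- M1. With the replicate block, that is with same-numbered libraries paired, the count was 2 and no call changed, and the share of GABAergic nuclei was higher in Ifnar1-/- in all 4 pairs (by 0.235 to 2.67 points), where an exact sign-flip test cannot go below its value of p = 0.125. No label links same-numbered mice beyond their sex, and the count of pairs depends on the numbering. Paired with Wt F1 (9.53%), Ifnar1-/- F2 (6.33%) would be the lower. The difference in that share was 0.573 points with 3 or more Lamp5 UMIs and 0.110 with all nuclei as the denominator, neither past the threshold. With 1 library left out it was 0.557 to 2.33. There the exact permutation test cannot go below p = 0.0571, so it could not pass, and that value was reached without Ifnar1-/- F2. The share with 2 or more Lhx6 UMIs moved from -0.49 to -1.91 and 0.831 with 1 library left out, to 0.949 with 3 or more Lamp5 UMIs and to 0.424 among members with 1 or more of Reln, Ndnf, Npy and Kit.

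The interaction with class gave 23 genes without the filter, 1 with 3 or more Lamp5 UMIs (Pde1a, named after its value was seen) and 0 to 7 with 1 library left out. The sex comparison gave 249 genes by DESeq2, 861 without the filter and 225 to 747 with 1 library left out. The interaction of sex and genotype gave 15 without the filter, 1 among members with 1 or more of the 4 identity genes (C1qa, a microglial gene, named after its value was seen) and 0 to 4 with 1 library left out. Of 16 single genes followed, 4 changed sign under an alternative without being called, 1 (Gm15446) was called only without the filter, and none reversed. The setting with 1 or more of Reln, Ndnf, Npy or Kit, and DESeq2 with sex, were chosen after seeing the data. The causes of these changes were not tested, beyond the smaller or larger sets of genes and libraries that each setting tests. Genes with few UMIs in 32 to 102 nuclei per library, such as most interferon response genes, could not be compared at this depth.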
